A study of Mus musculus with 9 samples.

Results

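Chemokine receptors are G protein-coupled receptors that steer the movement of leukocytes along gradients of small secreted proteins, the chemokines. The 9 genes described here are Cxcl12, its signalling receptor Cxcr4 and its scavenging receptor Ackr3, with 6 further chemokine receptors (Cx3cr1, Ccr1, Ccr2, Ccr7, Cxcr2 and Cxcr3). They were taken by symbol from the deposited array table, each from a probe set annotated to that gene alone. All 9 of 9 were measured, with 1 such probe set each, among 19937 genes in all. RNA of sorted cells from wild type C57BL/6 mice was hybridised to 9 arrays. There were 3 arrays of Ly6C-high microglia, which the labels also call MgSCs, 3 of Ly6C-low microglia, called bulk microglia cells, and 3 of spleen monocytes. The brain cells were enriched on Percoll after perfusion and digestion and stained for surface antigens that include CD45, CD11b, Ly6C and MHC II. No treatment or altered gene is labelled in any group. The sources used here give neither the age nor the number of mice per sample, nor the limits of the sort gates.

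In the brain, microglia are known for high Cx3cr1, the receptor of fractalkine (Cx3cl1), which neurons display. Classical blood monocytes are known for Ccr2, which lets them leave the marrow and enter inflamed tissue, and carry less Cx3cr1 than microglia. Cxcl12 is made by stromal and vascular cells, Cxcr4 passes its signal on, and Ackr3 takes it up without G protein signalling. Ccr7 guides dendritic cells and lymphocytes to lymphoid organs, Cxcr2 guides neutrophils, and Cxcr3 guides activated T and NK cells.

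Values are levels on the log2 scale as deposited, and group values are mean ± SD over n = 3 arrays. Differences are log2 fold changes with their standard error (SE) from 1 limma fit to all 9 arrays, and adjusted p-values are Benjamini-Hochberg over all 19937 genes, with 0.05 as the threshold. Nothing in the labels states that replicates are different mice, and the p-values therefore cover only the array-to-array spread, possibly a technical one. The number of arrays limits the precision. In RNA from a sorted population, fewer cells of a type and less RNA per cell cannot be told apart.

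Facts of the whole series bear on what follows. The median SD per gene was 0.27 over the Ly6C-high arrays, against 0.14 over the Ly6C-low arrays and 0.11 over the monocyte arrays. Correlations between arrays of the same group were 0.872 to 0.924 for Ly6C-high microglia and at least 0.967 for the other groups. When limma weighted arrays by their variability, Ly6C-high replicate 1 had the lowest weight, 0.138, where the rest had 0.417 to 2.279. It also had the narrowest interquartile range of log2 values, 2.24, where no other array was below 2.62. Leaving out this replicate is among the 22 alternatives. All 15 brain endothelium markers rose and all 12 measured homeostatic microglia markers fell in Ly6C-high against Ly6C-low microglia. The endothelium list mean was 10.26 to 10.76 in Ly6C-high arrays, against 6.29 to 7.52 in Ly6C-low arrays and 6.17 to 6.27 in monocyte arrays. The homeostatic microglia list mean was 8.12 to 8.80 in Ly6C-high arrays, against 10.72 to 11.20 in Ly6C-low arrays and 6.98 to 7.03 in monocyte arrays. Ly6C-high replicate 2 stood apart with a classical monocyte list mean of 9.56, where the other Ly6C-high arrays had 7.20 and 6.34, the Ly6C-low arrays 5.80 to 6.28 and the monocyte arrays 10.15 to 10.50. Ly6C-low replicate 3 stood apart with a neutrophil list mean of 9.13, where the other Ly6C-low arrays had 6.77 and 6.89, the Ly6C-high arrays 6.19 to 7.60 and the monocyte arrays 9.73 to 10.57. The spleen monocyte arrays also carried lymphocyte markers, with list means of 8.36 to 9.09 for B cells, 7.06 to 7.60 for T cells and 7.02 to 8.16 for NK cells, against 5.03 to 5.79 for all 3 lists in the 6 microglia arrays. Their nonclassical monocyte list mean was 9.26 to 9.52, against 7.67 to 7.78 in Ly6C-high and 7.09 to 7.36 in Ly6C-low arrays. The monocyte arrays thus carried markers of classical and nonclassical monocytes. Between the microglia groups 2 of 9 classical monocyte markers rose, 2 of 12 neutrophil, 1 of 7 NK cell and 1 of 6 B cell markers fell, and 0 of 9 T cell markers passed. In the other lists 0 of 8 pericyte and smooth muscle, 1 of 8 nonclassical monocyte, 2 of 7 dendritic cell, 3 of 7 border-associated macrophage and 1 of 8 astrocyte, oligodendrocyte and neuron markers past the threshold.

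Between Ly6C-high and Ly6C-low microglia, 4 of the 9 genes passed the test, with Cxcl12, Ackr3 and Cxcr4 higher and Cx3cr1 lower in Ly6C-high microglia, where 15.4% of all genes passed. For 5 of the 9 the arrays stood apart without overlap, against 30.1% of all genes. Between Ly6C-high microglia and spleen monocytes 9 of 9 passed, with Cxcl12, Ackr3 and Cx3cr1 higher and the others lower in Ly6C-high microglia, where 21.5% of all genes passed, and 9 did not overlap, against 45.9%. Between Ly6C-low microglia and monocytes 6 of 9 passed, with Cx3cr1 higher and Cxcr4, Ccr2, Ccr7, Cxcr2 and Cxcr3 lower in Ly6C-low microglia, where 14.5% of all genes passed, and 7 did not overlap, against 42.3%. The median log2 fold change of the 9 genes was -0.04, -1.74 and -1.13 in these comparisons in that order, beside 0.05, 0.09 and 0.05 over all genes. Each pair of these comparisons shares the arrays of a group. The members were chosen with earlier results of these data known, so their counts are a description.

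**Figure D1:**
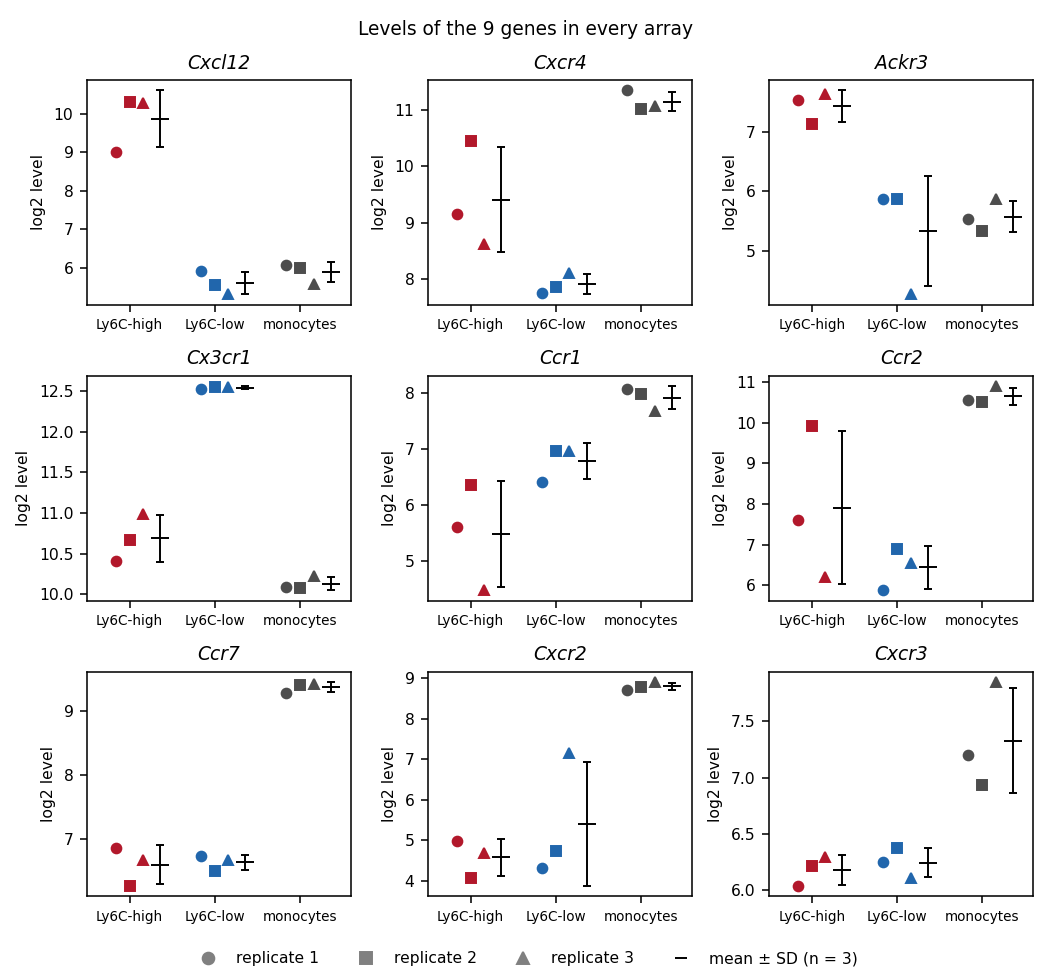
Log2 level (y axis, a separate scale per gene) of each of the 9 genes in the 3 Ly6C-high microglia, 3 Ly6C-low microglia and 3 spleen monocyte arrays, with symbols for the replicate number and bars for mean ± SD. Cxcl12 is above 9 in Ly6C-high arrays alone, Cx3cr1 is highest in the 3 Ly6C-low arrays at 12.52 to 12.55, and Ccr2 spreads from 6.20 to 9.92 among the Ly6C-high arrays.

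The Cxcl12 axis was examined first, beginning with the ligand. The promoter windows of 4 genes are shown because these were the ones that passed the test between the microglia groups. Each runs from 250 bases before to 50 bases after the annotated start, 5′ to 3′ on the gene's strand, from RefSeq on build GRCm38.p6. Cxcl12 is at chr6:117168285-117168584 (plus strand), Cxcr4 at chr1:128592250-128592549 (minus strand), Ackr3 at chr1:90203730-90204029 (plus strand) and Cx3cr1 at chr9:120068247-120068546 (minus strand). Capitals mark matches on either strand to any of 5 motifs.
Cxcl12: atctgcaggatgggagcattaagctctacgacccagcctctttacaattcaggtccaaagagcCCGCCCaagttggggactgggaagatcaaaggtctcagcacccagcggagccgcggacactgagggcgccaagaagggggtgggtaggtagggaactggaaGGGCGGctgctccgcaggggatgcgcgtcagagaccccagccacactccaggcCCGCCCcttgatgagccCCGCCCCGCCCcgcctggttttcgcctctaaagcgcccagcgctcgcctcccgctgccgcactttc
Cxcr4: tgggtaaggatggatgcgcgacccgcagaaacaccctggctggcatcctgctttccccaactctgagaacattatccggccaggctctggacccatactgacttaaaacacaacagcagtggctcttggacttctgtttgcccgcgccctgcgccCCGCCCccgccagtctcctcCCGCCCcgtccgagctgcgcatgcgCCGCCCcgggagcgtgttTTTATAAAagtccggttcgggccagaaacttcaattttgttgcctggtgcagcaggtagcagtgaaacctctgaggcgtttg
Ackr3: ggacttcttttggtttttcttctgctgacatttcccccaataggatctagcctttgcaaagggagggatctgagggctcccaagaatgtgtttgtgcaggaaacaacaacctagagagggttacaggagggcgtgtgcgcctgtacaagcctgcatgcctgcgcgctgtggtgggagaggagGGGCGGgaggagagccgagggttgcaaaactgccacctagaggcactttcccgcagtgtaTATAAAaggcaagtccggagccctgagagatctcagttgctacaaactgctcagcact
Cx3cr1: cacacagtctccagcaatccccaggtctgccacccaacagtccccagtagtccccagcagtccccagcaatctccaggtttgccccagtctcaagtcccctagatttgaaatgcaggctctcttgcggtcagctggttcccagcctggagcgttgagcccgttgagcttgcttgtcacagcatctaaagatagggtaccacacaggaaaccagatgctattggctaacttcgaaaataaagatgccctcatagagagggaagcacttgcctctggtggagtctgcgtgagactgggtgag

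The motifs were the ETS core GGAAGT, the hypoxia response element core ACGTG, the E-box CACGTG, which contains that core, the TATA box TATAAA and the GC box GGGCGG. The last 2 were added after the sequences had been read. The GC box occurred 5 times in the Cxcl12 window, with 1 pair of matches overlapping by 1 base, 3 times in Cxcr4, 1 time in Ackr3 and 0 times in Cx3cr1, and 35.7% of 32851 promoter windows hold it. The TATA box occurred in the Ackr3 window, starting 8 bases before the annotated start, and in the Cxcr4 window, as overlapping matches on both strands starting 32 and 30 bases before it, and 13.6% of windows hold it. The ETS core was in none of the 4 windows, and was found 1 time in Cxcr2 and 2 times in Cxcr3, in a table where 23.8% of windows hold it. The hypoxia core (19.6% of windows) and the E-box (7.15%) were in none of the 8 member promoters found in the table. Of the 9 genes, Ccr7 had no promoter entry.

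Cxcl12, the chemokine that retains progenitors in marrow and is also made by vessels, stood at 9.01, 10.29 and 10.29 in Ly6C-high microglia, against 5.92, 5.56 and 5.33 in Ly6C-low microglia and 6.08, 6.01 and 5.58 in monocytes. The Ly6C-high arrays were all above the other 6, and the Ly6C-low and monocyte arrays overlapped. Its level was 19.1-fold higher in Ly6C-high than in Ly6C-low arrays (log2 fold change 4.26 ± 0.34 SE, adjusted p = 0.00012). Against monocytes it was 15.7-fold higher (3.98 ± 0.34, adjusted p = 0.000134). Ly6C-low microglia and monocytes did not pass the test, with a difference of -0.28 (adjusted p = 0.715) and a 95% interval of -1.07 to 0.50. Both of these groups lay below 6.13, the median of all gene means, where array values tend to flatten differences. Both calls of Cxcl12 held in all 22 alternatives, with log2 fold changes of 3.91 to 4.68 against Ly6C-low microglia and 3.76 to 4.40 against monocytes.

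Ackr3, which binds and removes Cxcl12, was at 7.54, 7.13 and 7.63 in Ly6C-high microglia, against 5.87, 5.87 and 4.27 in Ly6C-low microglia and 5.53, 5.33 and 5.87 in monocytes. All 3 Ly6C-high arrays were above the rest, and Ly6C-low replicate 3 was the lowest of the 9. The difference from Ly6C-low microglia was 4.30-fold (log2 fold change 2.10 ± 0.40, adjusted p = 0.00855). Against monocytes it was 3.63-fold (1.86 ± 0.40, adjusted p = 0.0133). The first call held in all 22 alternatives, and the second was lost without monocyte replicate 2 (1.74, adjusted p = 0.0539). Ly6C-low microglia had a difference from monocytes of -0.24 (adjusted p = 0.801), with an interval of -1.17 to 0.68, and by 0.29 without Ly6C-low replicate 3 (adjusted p = 0.510).

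Cxcl12 and Ackr3 were high in the arrays with the highest endothelium list means. In Ly6C-low replicate 1, whose endothelium list mean was the highest of its group at 7.52, Cxcl12 was also the highest of its group. Ackr3 did not follow the list in Ly6C-high microglia, where replicate 2 had the lowest Ackr3 (7.13) with a list mean of 10.50, between those of the other replicates. In monocytes replicate 2 had the highest list mean (6.27) and replicate 1 the highest Cxcl12 (6.08). Cxcl12 was dim both in Ly6C-low microglia (mean 5.61) and in monocytes (mean 5.89), and the monocyte list means spanned only 6.17 to 6.27. No order is therefore read from either group. The endothelial cadherin Cdh5 averaged 10.76 ± 0.34 in Ly6C-high microglia, against 7.56 ± 0.77 in Ly6C-low microglia and 7.01 ± 0.26 in monocytes. No endothelium marker lay below 8.36 in any Ly6C-high array. The part of endothelial RNA in the levels of Cxcl12 and Ackr3 was not tested.

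Cxcr4, the signalling receptor of Cxcl12, had another order. It stood at 9.16, 10.45 and 8.62 in Ly6C-high microglia, against 7.75, 7.87 and 8.11 in Ly6C-low microglia and 11.35, 11.03 and 11.07 in monocytes. No 2 groups overlapped, and Ly6C-high replicate 2 was the closest of the microglia arrays to monocytes. Cxcr4 followed the order of the classical monocyte list means of 7.20, 9.56 and 6.34 over the Ly6C-high arrays, but not in the other groups. The part of monocyte RNA in the Cxcr4 levels was not tested. Cxcr4 was 2.83-fold higher in Ly6C-high than in Ly6C-low arrays (log2 fold change 1.50 ± 0.39, adjusted p = 0.0345). It was 3.33-fold lower in Ly6C-high microglia than in monocytes (-1.74 ± 0.39, adjusted p = 0.0158) and 9.43-fold lower in Ly6C-low microglia than in monocytes (-3.24 ± 0.39, adjusted p = 0.000852).

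The Cxcr4 call between the microglia groups was lost in 9 of 22 alternatives. These include leaving out Ly6C-high replicate 1, any 1 Ly6C-low array or any 1 monocyte array (adjusted p from 0.0571 to 0.106). Without Ly6C-high replicate 2, the array with the high classical monocyte list mean, the difference was 0.98 with adjusted p = 0.0118. The call against monocytes for Ly6C-high microglia was lost without Ly6C-high replicate 1 (-1.61, adjusted p = 0.0517), without monocyte replicate 1 (-1.64, 0.0610), with only these groups fitted (0.0507) and under cyclic loess (-1.06, 0.0783), while that for Ly6C-low microglia held in all 22.

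**Figure D2:**
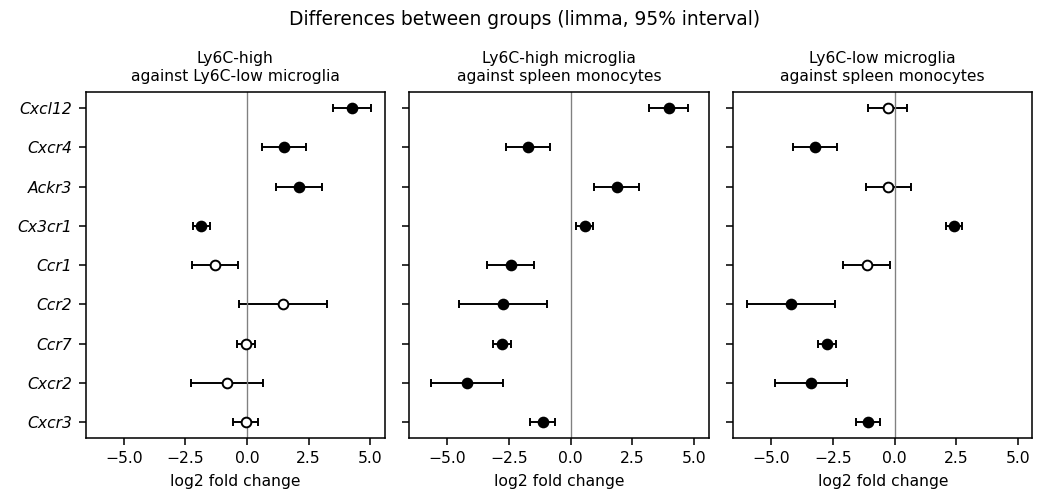
Log2 fold change (x axis) of the 9 genes in the 3 comparisons, with 95% intervals from the limma fit, filled where the adjusted p is under 0.05 and open otherwise. Cxcl12 is at 4.26 and 3.98 in the comparisons with Ly6C-high microglia and at -0.28 between Ly6C-low microglia and monocytes, while Cxcr4 lies above 0 between the microglia groups and below 0 against monocytes.

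Cx3cr1, the fractalkine receptor, was at 10.41, 10.67 and 10.99 in Ly6C-high microglia, against 12.52, 12.55 and 12.55 in Ly6C-low microglia and 10.09, 10.08 and 10.22 in monocytes. The groups did not overlap, and the Ly6C-low arrays were nearly identical (SD 0.02). The level in Ly6C-high microglia was 3.61-fold below that in Ly6C-low arrays (a difference of -1.85 ± 0.15, adjusted p = 0.00011) and 1.47-fold above monocytes (difference 0.56 ± 0.15, adjusted p = 0.0275). Ly6C-low microglia were 5.32-fold above monocytes (2.41 ± 0.15, adjusted p = 2e-05). Both calls with Ly6C-low microglia held in all 22 alternatives. The call against monocytes for Ly6C-high microglia was lost in 6, among them leaving out monocyte replicate 1, 2 or 3 (adjusted p = 0.0922, 0.0939 and 0.0559), and its value was 1.33 under cyclic loess (adjusted p = 0.00109).

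Cx3cr1 was lower in the arrays with lower homeostatic microglia list means, and Ly6C-high replicate 3, with the highest list mean of its group at 8.80, also had the most Cx3cr1. Among the monocyte arrays the highest list mean (7.03, replicate 2) stood beside the lowest Cx3cr1 (10.08). Their list means spanned only 6.98 to 7.03, so no order is read from them. Tmem119, a defining microglia marker, averaged 8.67 ± 0.57 in Ly6C-high microglia, against 11.94 ± 0.32 in Ly6C-low microglia and 6.24 ± 0.21 in monocytes. The part of the share of microglia RNA in the Cx3cr1 level was not tested.

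Ccr2, the receptor of Ccl2 that marks classical monocytes, was uneven within one group. It stood at 7.62, 9.92 and 6.20 in Ly6C-high microglia, against 5.88, 6.91 and 6.54 in Ly6C-low microglia and 10.55, 10.52 and 10.90 in monocytes. Ly6C-high replicate 2 came near the monocyte level and replicate 3 lay within the range of the Ly6C-low arrays, so the microglia groups overlapped. Their difference of 1.47 ± 0.78 did not pass (adjusted p = 0.261, 95% interval -0.31 to 3.25), and was 0.47 without Ly6C-high replicate 2 (adjusted p = 0.465) and 2.33 without replicate 3, where it passed (0.0401).

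Against monocytes, Ccr2 was 6.69-fold lower in Ly6C-high microglia (log2 fold change -2.74 ± 0.78, adjusted p = 0.0386). It was 18.5-fold lower in Ly6C-low microglia (-4.21 ± 0.78, adjusted p = 0.00754). The call for Ly6C-high microglia was lost in 11 of 22 alternatives, among them leaving out any 1 array other than Ly6C-high replicate 2 (-1.89 to -2.81, adjusted p from 0.0529 to 0.105). Without that replicate it was -3.75 (adjusted p = 0.000776). The call for Ly6C-low microglia held in all 22. Over the 3 Ly6C-high arrays Ccr2 followed the order of the classical monocyte list means of 7.20, 9.56 and 6.34. In the other groups it did not: the highest Ccr2 stood beside the lowest list mean in Ly6C-low microglia (6.91 and 5.80, replicate 2) and in monocytes (10.90 and 10.15, replicate 3). The part of monocyte RNA in the Ccr2 levels was not tested.

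Ccr1, a receptor of Ccl3 and Ccl5 on monocytes and neutrophils, was at 5.61, 6.35 and 4.47 in Ly6C-high microglia, against 6.41, 6.97 and 6.97 in Ly6C-low microglia and 8.08, 7.99 and 7.68 in monocytes. The 3 groups did not overlap, with Ly6C-high lowest, and only the largest of the 3 differences passed. Ly6C-high microglia were 5.42-fold below monocytes (log2 fold change -2.44 ± 0.41, adjusted p = 0.00427). The differences between Ly6C-high and Ly6C-low microglia (-1.30 ± 0.41, adjusted p = 0.0698) and between Ly6C-low microglia and monocytes (-1.13 ± 0.41, adjusted p = 0.117) did not pass. Without Ly6C-high replicate 2 both passed (-1.74, adjusted p = 0.00994, and -1.13, 0.0381), and without Ly6C-high replicate 3 the one between Ly6C-low microglia and monocytes did (0.0170). Ccr1 also followed the order of the classical monocyte list means over the Ly6C-high arrays, but not in the other groups. The part of monocyte RNA in the Ccr1 levels was not tested.

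Ccr7, the receptor that brings dendritic cells and naive T cells into lymph nodes, did not separate the microglia groups. It stood at 6.86, 6.26 and 6.67 in Ly6C-high microglia, against 6.73, 6.50 and 6.67 in Ly6C-low microglia and 9.28, 9.42 and 9.42 in monocytes. The microglia groups overlapped, and their difference of -0.04 did not pass (adjusted p = 0.887), with a 95% interval of -0.40 to 0.32. Both lay below monocytes, by 2.78 ± 0.16 on the log2 scale in Ly6C-high microglia (6.87-fold lower, adjusted p = 1.79e-05) and by 2.74 ± 0.16 in Ly6C-low microglia (6.69-fold lower, 1.63e-05). These calls held in all 22 alternatives.

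Cxcr3, the receptor of the interferon-induced chemokines Cxcl9, Cxcl10 and Cxcl11, was at 6.04, 6.22 and 6.30 in Ly6C-high microglia, against 6.25, 6.38 and 6.11 in Ly6C-low microglia and 7.20, 6.94 and 7.85 in monocytes. The microglia groups overlapped, with a difference of -0.06 (adjusted p = 0.866) and an interval of -0.56 to 0.43. Cxcr3 was 2.21-fold lower in Ly6C-high microglia than in monocytes (log2 fold change -1.15 ± 0.22, adjusted p = 0.00713) and 2.12-fold lower in Ly6C-low microglia (-1.08 ± 0.22, adjusted p = 0.0107). The call for Ly6C-low microglia was lost in 1 of 22 alternatives, with Ly6C-low replicate 3 and also Ly6C-high replicate 2 left out (-1.02, adjusted p = 0.0577).

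Among the monocyte arrays, replicate 3 was highest in Cxcr3 and also in the T cell and NK cell list means (7.60 and 8.16). Among the Ly6C-high arrays, replicate 1 had the highest T cell list mean (5.38) and the lowest Cxcr3 (6.04). Their T cell list means spanned only 5.10 to 5.38, so no order is read from them. Cd3e, a chain of the T cell receptor complex, averaged 6.44 ± 0.30 in Ly6C-high microglia and 6.30 ± 0.31 in Ly6C-low microglia, against 9.31 ± 0.21 in monocytes. The B cell receptor chain Cd79a averaged 4.92 ± 0.18 in Ly6C-high microglia and 5.43 ± 0.57 in Ly6C-low microglia, against 9.88 ± 0.56 in monocytes. The part of lymphocyte RNA in the Ccr7 and Cxcr3 levels of the monocyte arrays was not tested.

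Cxcr2, the receptor that draws neutrophils along Cxcl1 and Cxcl2, was at 4.99, 4.07 and 4.67 in Ly6C-high microglia, against 4.31, 4.73 and 7.15 in Ly6C-low microglia and 8.71, 8.77 and 8.90 in monocytes. Ly6C-low replicate 3 stood far above the other 5 microglia arrays. The microglia groups overlapped, and the difference of -0.82 ± 0.64 did not pass (adjusted p = 0.436, interval -2.28 to 0.64). Without Ly6C-low replicate 3 it was 0.057 (adjusted p = 0.922). Cxcr2 was 18.6-fold lower in Ly6C-high microglia than in monocytes (log2 fold change -4.21 ± 0.64, adjusted p = 0.00251) and 10.5-fold lower in Ly6C-low microglia (-3.39 ± 0.64, adjusted p = 0.00823). For Ly6C-low microglia the difference was -4.27 without Ly6C-low replicate 3 (adjusted p = 0.000143), and both calls held in all 22 alternatives. Ly6C-low replicate 3 also had the highest neutrophil list mean of its group. In the other groups the order differed: Ly6C-high replicate 2 had the highest list mean of its group (7.60) and the lowest Cxcr2 (4.07), and monocyte replicate 1 had the highest list mean (10.57) and the lowest Cxcr2 (8.71) of the monocyte arrays. Over the Ly6C-high arrays the list genes were uneven. S100a8 ran from 5.29 to 11.75, S100a9 from 6.11 to 10.57 and Elane from 6.09 to 8.96. Mmp8 ran from 5.19 to 7.475, Mpo from 7.96 to 10.04 and Csf3r from 7.79 to 8.98. Ngp ran only from 5.76 to 6.01 and Ly6g from 3.81 to 4.44. Camp, Ltf, Retnlg and Mmp9 also had narrower ranges than Csf3r. Which cells the list mean reflects there was not tested, so no order of neutrophil RNA is read from it. Cxcr2 spanned only 8.71 to 8.90 in monocytes. The part of neutrophil RNA in Cxcr2 was not tested.

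**Figure D3:**
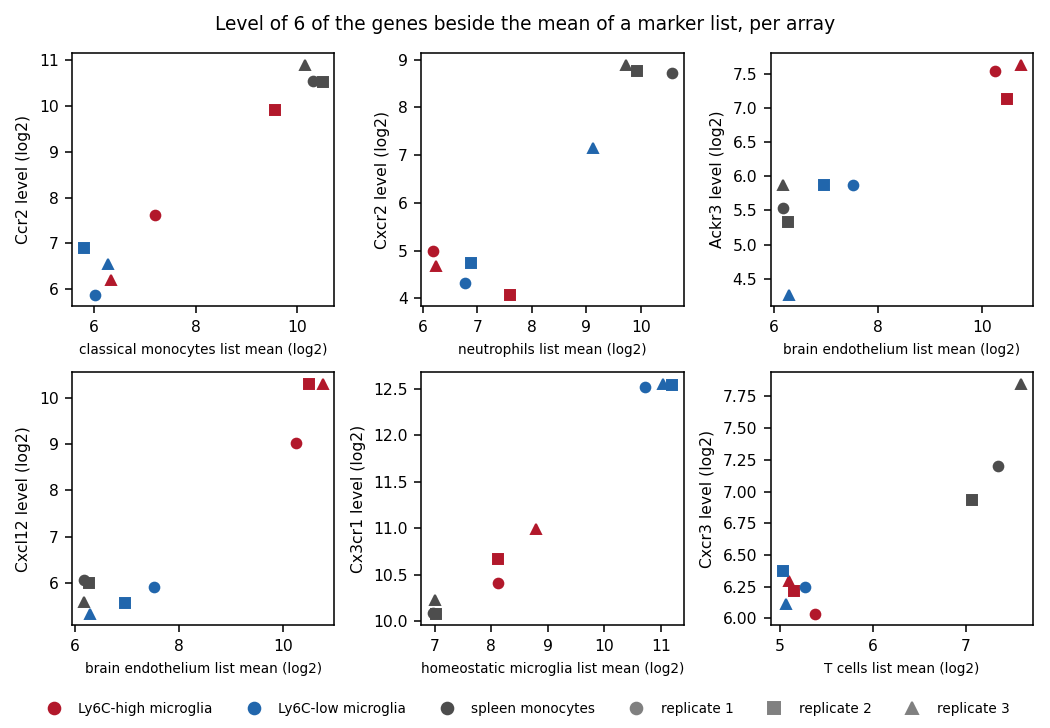
Log2 level of 6 of the genes (y axis) against the mean log2 level of a marker list (x axis) in each of the 9 arrays, coloured by group with symbols for replicates. Ly6C-high replicate 2 lies near the monocyte arrays for Ccr2 and the classical monocyte list (9.92 and 9.56). Ly6C-low replicate 3 lies between the other microglia arrays and the monocyte arrays for Cxcr2 and the neutrophil list (7.15 and 9.13).

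The other genes of the pathway were counted from lists of receptors, ligands and signalling genes. The part that the mix of cell types in each group had in their levels was not tested in any comparison. Of 15 other chemokine receptors measured, of 16 listed, 0 rose and 2 fell in Ly6C-high against Ly6C-low microglia, with a list median of 0.09. That share is near the 15.4% of all genes that passed, and nothing is read from it about these receptors. The 2 were Ccr6, a receptor of B cells and Th17 cells (log2 fold change -2.35, adjusted p = 0.00144), and Ccrl2, a chemerin-binding receptor (-2.22, 0.000151). Ccr6 averaged 5.74 ± 0.51 in Ly6C-high and 8.08 ± 0.53 in Ly6C-low microglia, beside 5.90 ± 0.18 in monocytes. Ccrl2 averaged 9.10 ± 0.29 in Ly6C-high and 11.32 ± 0.13 in Ly6C-low microglia, beside 9.90 ± 0.28 in monocytes. Both were highest in Ly6C-low microglia, as Cx3cr1 was.

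Against monocytes, where 21.5% of all genes passed, 7 of these 15 receptors fell and 0 rose in Ly6C-high microglia, led by Ccr9, the gut-homing receptor (-3.22), Cxcr5, the follicle-homing receptor of B cells (-2.72), and Ccr3, the eosinophil receptor (-2.68). Without Ly6C-high replicate 3 the count that rose was 3. In Ly6C-low microglia, where 14.5% of all genes passed, 6 fell, among them Ccr9 (-2.85) and Cxcr5 (-2.61), and 2 rose, Ccr6 (2.19) and Ccrl2 (1.42). Between the microglia groups the count that fell was 2 in all 22 alternatives, and the count that rose was 0 to 2, with 2 when Ly6C-high replicate 3 was left out.

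Ligands of the 8 receptors were counted next, with 19 of 20 measured and Cxcl12 left out. In Ly6C-high against Ly6C-low microglia 1 rose and 5 fell, with a list median of 0.06, beside 15.4% of all genes past the test. The calls over all genes also leaned lower, with 29.1% of them higher in Ly6C-high microglia. Fractalkine, Cx3cl1, rose by 1.57 (adjusted p = 0.00868), to 7.93 ± 0.60 in Ly6C-high microglia, against 6.36 ± 0.37 in Ly6C-low microglia. Its receptor Cx3cr1 fell there, but whether both RNAs came from the same cells was not tested. The Ccr2 ligands Ccl12 (-3.32), Ccl7 (-2.59) and Ccl2 (-2.23), the Cxcr3 ligand Cxcl10 (-2.27) and the Ccr1 ligand Ccl3 (-1.67) fell. The count of ligands that fell was 3 when Ly6C-low replicate 2 or 3 was left out, and the count that rose was 2 when Ly6C-high replicate 1 or 2 was.

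Against monocytes, Ly6C-high microglia had 2 ligands higher and 7 lower, beside 21.5% of all genes past the test and 32.0% of those calls higher. The platelet chemokine Ppbp (-3.73), Ccl5 (-3.56), Ccl6 (-3.51), Cxcl9 (-3.16) and Ccl9 (-2.26) led those that fell, and Ccl12 (2.36) rose. The count that fell was 4 when monocyte replicate 1 or 2 was left out. In Ly6C-low microglia 4 rose and 5 fell against monocytes, beside 14.5% of all genes past the test, among them Ccl12 (5.69), Ccl7 (2.37), Ppbp (-4.74), Ccl5 (-4.18), Cxcl9 (-3.38) and Ccl9 (-2.32). The count that rose was 2 when Ly6C-low replicate 2 or 3 or monocyte replicate 1 or 2 was left out.

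Signalling genes downstream of the receptors were counted last. Of 26 measured, of 28 listed, 14 fell and 2 rose in Ly6C-high against Ly6C-low microglia, and 10 did not pass, with a list median of -1.17 beside 0.05 over all genes. In the same comparison all 12 measured homeostatic microglia markers fell and all 15 brain endothelium markers rose. The part of microglia and endothelial RNA in the signalling gene levels was not tested. Over all genes 15.4% passed, and 29.1% of these calls were higher in Ly6C-high microglia, or 41.7% under quantile normalization and 43.9% under cyclic loess. Rgs1, which shortens G protein signals, fell by 2.78 on the log2 scale, and the arrestin Arrb2, which uncouples receptors, by 2.68. The Rac activators Elmo1 (-2.55) and Dock2 (-2.43), the chemokine-activated kinase subunit Pik3cg (-2.53) and the phospholipase Plcb2 (-2.42) also fell. The 2 that rose were Dpp4, the peptidase that clips Cxcl12 (1.62, adjusted p = 0.00686), and the receptor kinase Grk5 (1.11, adjusted p = 0.0249), both named after their values were seen. Dpp4 averaged 6.74 ± 0.35 in Ly6C-high microglia, against 5.12 ± 0.61 in Ly6C-low microglia and 7.89 ± 0.12 in monocytes. The count that fell ran from 12 to 15 over the alternatives, and the count that rose was 1 when Ly6C-high replicate 2 or 3 or Ly6C-low replicate 1 or 3 was left out.

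Against monocytes, 19 signalling genes fell and 1, the phospholipase Plcb3 (0.88), rose in Ly6C-high microglia, beside 21.5% of all genes past the test and 32.0% of those calls higher. Of the 11088 brighter genes 4141 passed, with 25% of these calls higher and a median log2 fold change of -0.279. The invariant chain Cd74, which is also a receptor of Mif with Cxcr4, fell by 4.31, Grk3 by 2.81, Dock2 by 2.73, the GTPase Rac2 by 2.19, Rgs1 by 2.08 and the arrestin Arrb1 by 2.02 on the log2 scale. The count that fell was 12 without monocyte replicate 3 and 11 under quantile normalization. In Ly6C-low microglia, beside 14.5% of all genes past the test, 7 fell against monocytes, led by Cd74 (-2.95), Dpp4 (-2.76), Rgs18 (-2.56), Grk5 (-2.02), Rac2 (-1.80) and Grk3 (-1.68), and 5 rose, Elmo1 (1.38), Plcb3 (1.05), Arrb2 (1.05), Plcb2 (1.04) and Pik3cg (0.91). The count that rose was 2 when any 1 Ly6C-low or monocyte array was left out.

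**Figure D4:**
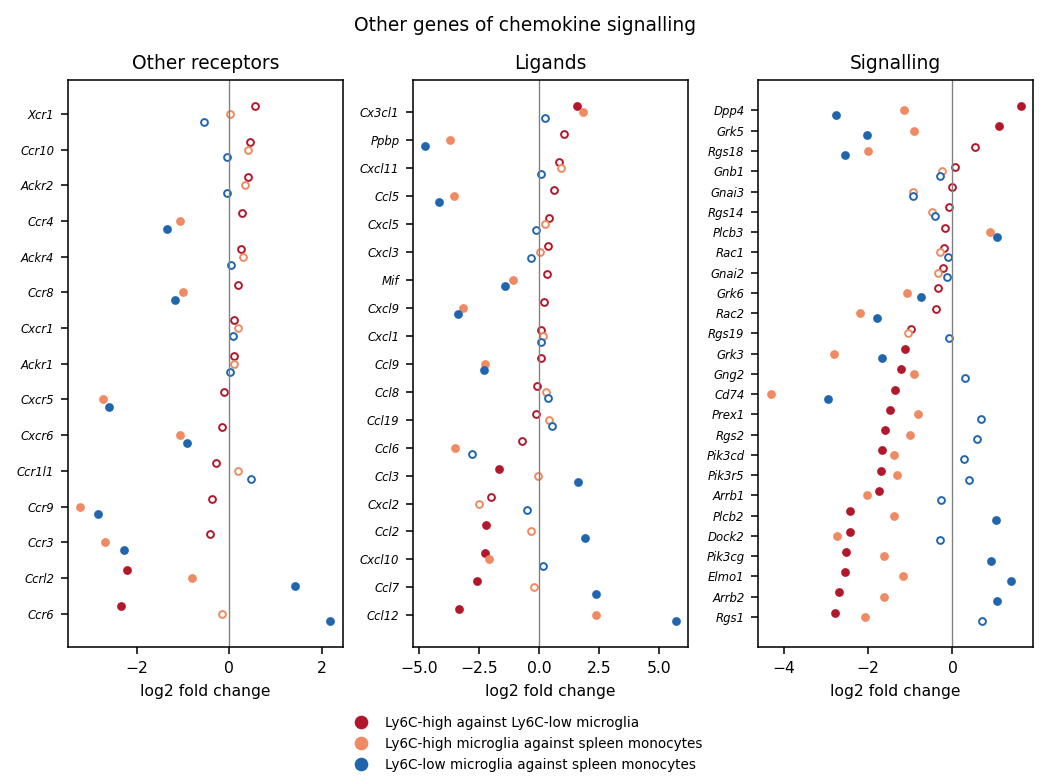
Log2 fold change (x axis) of 15 other chemokine receptors, 19 ligands and 26 signalling genes in the 3 comparisons, coloured by comparison and filled where the adjusted p is under 0.05. In the signalling panel 14 genes are filled below 0 and 2 above 0 for Ly6C-high against Ly6C-low microglia, and Ccr6 and Ccrl2 lie below 0 there and above 0 for Ly6C-low microglia against monocytes.

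Genes with the most similar course over the 9 arrays were found by the root mean square (RMS) difference on the log2 scale after each gene was centred on its own mean. For Cxcl12 they were Ndnf (RMS 0.378), Slc1a1 (0.414) and Cyyr1 (0.420). Ndnf averaged 8.88 in Ly6C-high microglia, against 5.02 in Ly6C-low microglia and 5.36 in monocytes. For Ackr3 they were Selenom (0.280), Tpm1 (0.301) and Nid1 (0.362), all highest in Ly6C-high microglia.

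Capg (0.148), Arhgef37 (0.218) and Ms4a8a (0.357) were closest to Cxcr4. Capg averaged 7.39 in Ly6C-high microglia, against 6.09 in Ly6C-low microglia and 9.37 in monocytes, the same order of groups as Cxcr4. Mlph (0.171), Dnajb13 (0.171) and Ctsf (0.172) were closest to Cx3cr1, Scpep1 (0.261), Alox5ap (0.270) and Coro1a (0.296) to Ccr1, and Cd44 (0.356), Emilin2 (0.373) and Ifi209 (0.435) to Ccr2. The 9 arrays fall into 3 groups, and the genes compared share these libraries.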

How the data were processed

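RNA of 9 sorted samples was hybridised to Affymetrix gene arrays, and all samples had an RNA integrity number of at least 9.2, per the labels' protocols. The authors deposited 1 table of log2 values with a column per array. Per the submitters' processing notes, the tools were RMA and oligo, with no version. Their settings and the genome build were not given in the sources used here. Of 34760 probe sets, 21640 had 1 gene symbol in the platform annotation, 1321 had several and 11799 were not named here. The brightest probe set by mean over the 9 arrays stood for a gene, which gave 19937 genes. Coordinates are RefSeq's on GRCm38.p6 and apply to the promoter windows alone.

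Values were used as deposited. limma 3.58.1 in R 4.3.3 fitted 3 group means, and the 3 contrasts were tested two-sided with eBayes at an adjusted p of 0.05. All adjusted p-values come from limma. In each pathway list up to 6 genes past the threshold with the largest change were named, as were the 3 genes most like each of 6 members. Other genes and markers given with values were picked after these were seen. The members and lists were chosen with earlier results of these data known. The labels do not say whether equal replicate numbers mark a shared animal or day, so arrays were not treated as paired, and the numbers served as a block in alternatives. The code was tested on simulated data. In all, 22 alternatives were run per comparison.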

Additional observations from a re-analysis of the deposited data

How the results depend on the processing

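Of 594 recomputed values of the 9 genes (22 alternatives in 3 comparisons), 540 kept their direction and side of the threshold, 32 lost a call, 9 gained one and 13, none of them called, turned sign. The number of members called was 3 to 5 between the microglia groups, 6 to 9 for Ly6C-high microglia against monocytes and 5 to 7 for Ly6C-low microglia against monocytes, and with both doubted arrays (Ly6C-high replicate 2, Ly6C-low replicate 3) left out it was 5, 8 and 5. The sign turned for Ccr7 between the microglia groups under quantile normalization (0.13), under cyclic loess (0.24), without Ly6C-high replicate 2 (0.13), without Ly6C-low replicate 1 (0.011) and without both doubted arrays (0.15). It turned for Cxcr3 there under cyclic loess (0.041), with array weights (0.0065), without Ly6C-high replicate 1 (0.012) and without Ly6C-low replicate 2 (0.0036). It turned for Cxcr2 there without Ly6C-low replicate 3 (0.057) and without both arrays (0.31), and for Ackr3 between Ly6C-low microglia and monocytes without Ly6C-low replicate 3 (0.29) and without both (0.29). With 1 array left out, these values ran from -0.17 to 0.13 for Ccr7, from -0.13 to 0.012 for Cxcr3, from -1.36 to 0.057 for Cxcr2 and from -0.51 to 0.29 for Ackr3. The cause was not tested. The number of all genes called was 3080 between the microglia groups, 2038 with only these groups fitted and 1956 to 3888 with 1 array left out. It was 4290 for Ly6C-high microglia against monocytes, and 2505 to 6091 with 1 array left out. It was 2894 for Ly6C-low microglia against monocytes, 4614 with only these groups fitted, 5738 with array weights and 1864 to 3778 with 1 array left out. Of the calls between the microglia groups 29.1% were higher in Ly6C-high microglia, against 41.7% under quantile normalization and 43.9% under cyclic loess, and against monocytes 32.0%, 46.4% and 45.0%. Deviations from the group means correlated from -0.073 to 0.153 between arrays that share the title number but not the description number. They correlated by 0.301 and 0.21 between the 2 pairs of equal description number (consensus correlation 0.294). The pair at 0.301 also shares its title number. A shared source of these pairs was neither shown nor excluded. With the title number as a replicate block of fixed terms in the limma fit, 2973, 4295 and 2795 genes and 3, 9 and 6 members were called. Of the members' calls Cxcr4 between the microglia groups alone was lost (1.50, adjusted p = 0.0521). The description number, which a Ly6C-high and a Ly6C-low array share for 8 and for 11, entered as a random block through the consensus correlation. With it, 3932, 4287 and 2937 genes and 4, 9 and 6 members were called. The 2 blocks thus differ in model as well as in numbering. Within these pairs 7 and 8 of the 9 genes had the sign of the group difference. The paired arrays also enter the group differences, so agreement in sign is partly built in. The group differences of Ccr7 (-0.04) and Cxcr3 (-0.06) were too small to give a firm sign. The share over all genes is not given, so the counts are a description. Each member has 1 probe set, so reading a member from another probe set could not be run, and averaging the probe sets of a gene or testing every probe set, which are among the 22, left the members' fold changes as they were and moved only their adjusted p-values. Dim levels limit Cxcl12 and Ackr3 in Ly6C-low microglia and monocytes, Ccr1 in Ly6C-high microglia and Cxcr2 in both microglia groups, whose means lay below the median of all genes. The Cxcr3 means of 6.18 in Ly6C-high and 6.24 in Ly6C-low microglia lay just above that median of 6.13.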
